A study of Saccharomyces cerevisiae with 17 samples.

Results

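The AAD genes of budding yeast are a family of 7 gene IDs, AAD3, AAD4, AAD6, AAD10, AAD14, AAD15 and AAD16, that were picked by ID from a count table of 6692 genes, of which 6162 were tested. They are named for their likeness to the aryl-alcohol dehydrogenase of the lignin-degrading fungus Phanerochaete chrysosporium, an enzyme that reduces aromatic aldehydes to alcohols with NADPH, and they belong to the aldo-keto reductases. Most copies lie near chromosome ends, several are broken or shortened in the laboratory strain, and the transcription factor Yap1 is known to induce AAD4 and AAD6 when cells are exposed to chemicals that cause oxidative stress. The genes were measured in strains that lack 1 factor of NMD (nonsense-mediated mRNA decay), which destroys mRNAs on which ribosomes meet a stop codon too early. Upf1 is the RNA helicase on which the pathway depends. Nmd4 and Ebs1 are yeast proteins that bind it.

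Poly(A) RNA was sequenced from upf1Δ (3 libraries), nmd4Δ (6), ebs1Δ (3) and wild type (5). All 4 genotypes are BY4741, a haploid MATa laboratory strain, carry the LEU2 plasmid pRS415 and were grown to mid-log phase in SD-LEU. The genotypes were upf1delta::KlURA3, nmd4delta::KlURA3 and ebs1delta::KlURA3, each with pRS415, and pRS415 alone in wild type. The marker KlURA3 is in all 3 deletion strains and not in wild type, so its effect and that of a deletion cannot be told apart in comparisons with wild type. The labels call the libraries of a genotype biological replicates and do not say that they came from separate transformants. There were 2 sequencing batches. The 11 libraries of batch 1 had 19.75 to 29.67 M reads counted to genes, and the 6 of batch 2, all nmd4Δ or wild type, had 40.37 to 59.48 M.

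Replicates 4, 5 and 6 of nmd4Δ deviated from their group mean as replicates 1, 2 and 3 did, and wild type replicates 3 and 4 as 1 and 2, with residual correlations of 0.645 to 0.833, against at most 0.291 for other pairs across batches. Matched libraries were therefore averaged first, and every mean ± SD below runs over 3 sets per genotype. The deleted genes were low in their own strains, with 5 to 59 reads of UPF1 (listed as NAM7) in upf1Δ against 4535 to 10325 in wild type, 17 to 61 reads of NMD4 in nmd4Δ against 805 to 1765 in wild type, and 0 to 1 read of EBS1 in ebs1Δ against 3325 to 6950 in wild type. Of the strain's markers, URA3 had 0 reads in every library and MET17 at most 1. HIS3 had 2156 to 6658 reads and LEU2, carried on the plasmid, 65799 to 331285. In upf1Δ against wild type HIS3 was called higher (log2 fold change 0.42) and LEU2 lower (-0.48). The 5 MATa genes had 1924 to 53397 reads, and the 4 MATalpha genes 3 to 4279. All 5 MATa genes were lower in upf1Δ than in wild type (median log2 fold change -1.06) and 2 of the 4 MATalpha genes, SAG1 and STE3, were higher; the part of this in the AAD values was not tested. All 7 AAD genes passed the filter on low counts, with 11 to 3013 reads a library.

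Of the 6 AAD loci that RefSeq places on the R64 assembly (the sequence of sacCer3), AAD14 (YNL331C) holds the longest annotated open frame. It lies at chrXIV:16118-17248 on the minus strand with 376 codons before its stop. AAD3 (YCR107W, chrIII:313890-314981, plus strand, 1092 bases), AAD4 (YDL243C, chrIV:17577-18566, minus strand, 990 bases) and AAD10 (YJR155W, chrX:727405-728271, plus strand, 867 bases) are annotated as shorter single-exon genes. AAD6 (YFL056C, chrVI:14305-15431, minus strand, 1127 bases) is annotated as a pseudogene that includes AAD16 (YFL057C), which the count table keeps as a row of its own. AAD15 (YOL165C, chrXV:1647-2078, minus strand) has only 432 bases. AAD3 and AAD15 lie 1.64 and 1.65 kb from a chromosome end, and the other loci 14.3 to 17.6 kb.

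The breaks of the family can be read where each locus is aligned to AAD14, from the RefSeq R64 genome. The first 10 codons of that frame, with codon 1 in capitals, show that AAD4 has ATT in place of the start codon (G3T, counted from the first base of AAD14), whereas AAD6 and AAD10 keep ATG.
AAD14: ATGactgacttgtttaaacctctacctgaa
AAD4: ATTagtgaattatttaaacctctacctgaa
AAD6: ATGgctgatttatttgctcctgctcctgaa
AAD10: ATGtctgaggcttttggacctgcacctgaa
These windows are chrXIV:17219-17248, chrIV:18675-18704 and chrVI:15402-15431 on the minus strand and chrX:727141-727170 on the plus strand. The AAD4 frame runs on for 375 codons without a stop, and its annotated start is the ATG at AAD14 codon 47. AAD3 aligns only from AAD14 base 32. Counted back from there without gaps, it has GTG in the place of codon 1, and its annotated start follows at chrIII:313890.

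AAD10 carries a stop inside the frame at codon 77, through C229T and A231G, and its annotated start lies after it at codon 89. Codon 77 is in capitals below, with 4 codons on each side.
AAD14: gcaaacagttacCAAaatgaagagtca
AAD6: gcaaataattatCAAaacgaacagtca
AAD10: gcaaataattatTAGtatgagcagtca
The windows are chrXIV:17006-17032 and chrVI:15189-15215 on the minus strand and chrX:727357-727383 on the plus strand. Outside that codon the aligned AAD10 sequence keeps the frame up to a stop at codon 377.

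In AAD6 a run of 3 G, in capitals below, is 1 base shorter at AAD14 base 516, which shifts the frame and brings a stop at codon 213.
AAD14: tattttagttcagcaGGGcaaggtcctata
AAD6: cattctagtgcagcaGGcaaggtcctctat
These are chrXIV:16719-16748 and chrVI:14902-14931 on the minus strand. The AAD6 locus thus holds a first frame of 212 codons and, in another frame, a second of 152 codons. The sources used here do not say how reads were divided between the rows AAD6 and AAD16, and reads that overlap both may be missing from both.

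AAD15 resembles the 3' part of AAD3 and is 97.7% identical to AAD3 over its 432 bases. The likeness to AAD3 starts at AAD3 codon 207, 42 bases before the annotated AAD15 start. A stretch of 511 bases that runs up to that point and overlaps the AAD3-like part by 2 bases (chrXV:2119-2629) is 97.7% identical to a stretch inside RDS1 (chrIII:311006-311516), a gene for a zinc cluster transcription factor that lies 433 bases before AAD3. Both windows below show the join, with the shared AAD3 sequence in capitals.
AAD15: tcgagttcagccTGGAACGTGTTGAACAGA
AAD3: taccaaggtaaaTGGAACGTGTTGAACAGA
They are chrXV:2103-2132 on the minus strand and chrIII:314496-314525 on the plus strand. The RDS1-like frame and the AAD15 frame are offset by 1 base. Next to the pair AAD3 and AAD15, the most alike members were AAD4 and AAD14 at 91.1% identity, and the remaining pairs lay between 77.5% and 89.9%. The share of 50-base windows that occur once in the genome was 64.8% for AAD15, 74.2% for AAD3, 78.6% for AAD4, 79.3% for AAD6, 91.8% for AAD14 and 97.6% for AAD10, and 150-base windows were all unique. Since the sources used here do not say how reads that fit several positions were counted, the split of short reads between alike members, AAD3 and AAD15 above all, is uncertain.

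**Figure D1:**
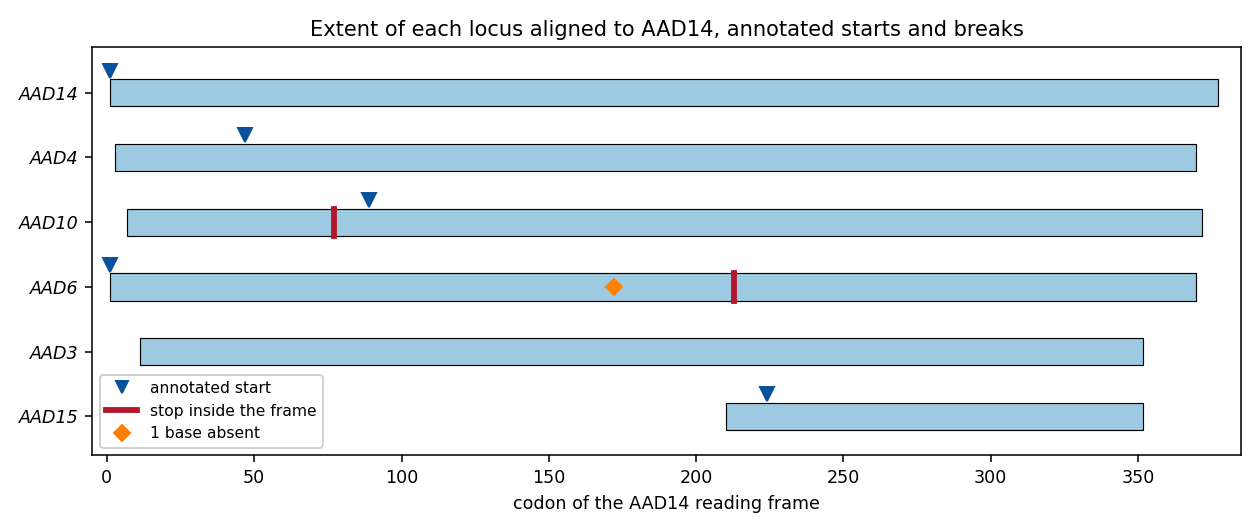
Bars give the stretch of each AAD locus that aligns with AAD14, in codons of the AAD14 frame (x axis). Triangles mark annotated starts (that of AAD3 falls before its aligned stretch), red lines the stops at codon 77 of AAD10 and codon 213 of AAD6, and the diamond the base absent at codon 172 of AAD6; AAD15 covers only the end of the frame.

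Without UPF1 every member of the family was more abundant than in wild type. The family as a whole reached 473 ± 22.8 CPM (counts scaled to library size, with TMM factors applied; SD, n = 3) in upf1Δ, against 94.0 ± 2.48 CPM in wild type. All 7 genes were called higher by edgeR's quasi-likelihood test with an adjusted p under 0.05, where 36.4% of the 6162 tested genes were. In all 7 the upf1Δ libraries lay above every wild type library, as they did for 35.4% of tested genes. The median log2 fold change of the 7 was 2.38, and that of all tested genes -0.02. In bulk RNA more expressing cells and more RNA per cell cannot be told apart.

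AAD14, the intact member, whose protein has aldehyde reductase activity, had 83.6, 87.5 and 87.0 CPM in upf1Δ, against 16.3, 15.2, 15.6, 15.5 and 17.4 CPM in wild type. The groups were far apart and each was narrow. Its log2 fold change was 2.38 ± 0.07 (SE; edgeR, adjusted p = 2.71e-16). The AAD3 frame is also uninterrupted, though it has GTG in the place of codon 1. AAD3 had 71.5, 80.0 and 83.9 CPM in upf1Δ, against 24.9, 30.04, 25.3, 29.0 and 25.8 CPM in wild type. This was the highest wild type level among the 7 rows and the smallest rise, a log2 fold change of 1.46 ± 0.08 (edgeR, adjusted p = 7.30e-12).

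AAD4 and AAD10 rose as well. AAD4, in which the first codon is ATT, had 112, 109 and 119 CPM in upf1Δ, against 14.2, 15.3, 13.5, 12.4 and 12.8 CPM in wild type. It became the most abundant row in upf1Δ, with a log2 fold change of 2.98 ± 0.08 (edgeR, adjusted p = 1.48e-16). AAD10, with the stop at codon 77, had 70.6, 79.1 and 79.6 CPM in upf1Δ, against 14.1, 15.3, 13.4, 14.2 and 12.7 CPM in wild type. Its log2 fold change of 2.43 ± 0.06 (edgeR, adjusted p = 1.17e-16) and that of the intact AAD14 differed by less than their SEs.

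The pseudogene rows AAD6 and AAD16 rose too, with smaller log2 fold changes than AAD4, AAD10 and AAD14. AAD6 had 53.3, 53.3 and 56.0 CPM in upf1Δ, against 14.9, 12.6, 11.95, 11.88 and 13.2 CPM in wild type. AAD16 had 36.8, 38.3 and 46.0 CPM in upf1Δ, against 10.6, 10.6, 10.1, 10.2 and 9.99 CPM in wild type. Their log2 fold changes were 1.99 ± 0.06 and 1.91 ± 0.08 (edgeR, adjusted p = 1.84e-15 and 7.15e-14). AAD16 held 74.3 ± 6.79 reads per 100 AAD6 reads in upf1Δ and 79.6 ± 4.90 in wild type (SD, n = 3), a difference smaller than the spread.

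AAD15, the shortest member, had the lowest level in wild type and the largest fold change of the 7. It had 23.3, 24.0 and 25.1 CPM in upf1Δ (618, 627 and 634 reads), against 0.418, 0.698, 0.271, 0.718 and 0.559 CPM in wild type (11, 18, 15, 29 and 22 reads). The log2 fold change was 5.31 ± 0.27, a 39.5-fold difference (edgeR, adjusted p = 3.57e-12), and ranked 4 among the 6162 genes. AAD15 held 30.8 ± 1.47 reads per 100 AAD3 reads in upf1Δ and 1.98 ± 0.538 in wild type (SD, n = 3), so its reads did not keep a fixed ratio to those of its near-identical partner.

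**Figure D2:**
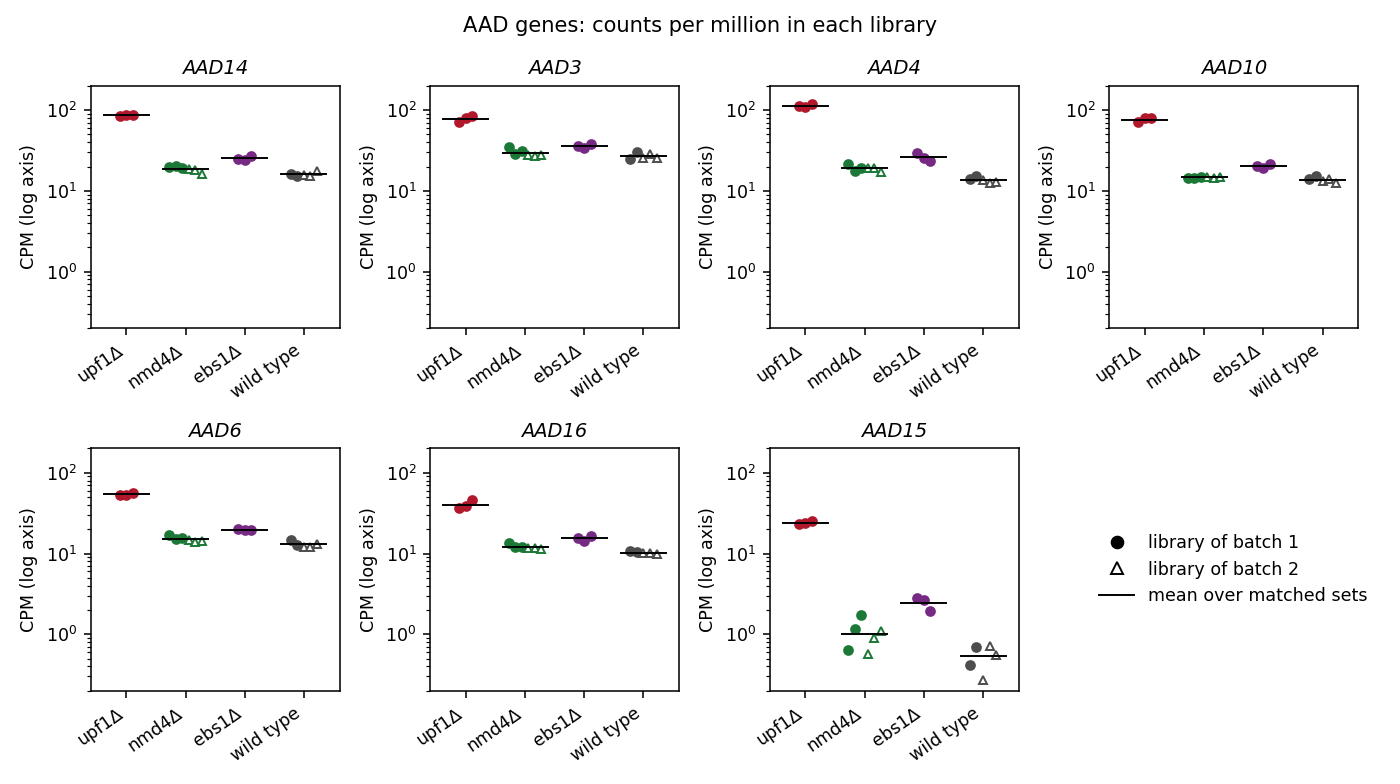
CPM on a log axis for each AAD row, with upf1Δ, nmd4Δ, ebs1Δ and wild type from left to right. Points are libraries (filled, batch 1; open, batch 2) and lines are means over matched sets; upf1Δ stands above all other groups in each panel, and wild type AAD15 stays below 1 CPM.

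The make-up of the family differed between upf1Δ and wild type. AAD4 held 24.0 ± 0.811% of the family's reads in upf1Δ and 14.4 ± 0.531% in wild type, and AAD15 held 5.10 ± 0.054% in upf1Δ and 0.568 ± 0.184% in wild type (SD, n = 3). AAD3 held 16.6 ± 0.615% in upf1Δ and 28.5 ± 1.76% in wild type. AAD10 held 16.2 ± 0.563% in upf1Δ and 14.6 ± 0.793% in wild type, AAD6 11.5 ± 0.302% in upf1Δ and 13.8 ± 0.989% in wild type, and AAD16 8.51 ± 0.639% in upf1Δ and 10.9 ± 0.228% in wild type. In these 6 genes no upf1Δ library overlapped a wild type library, with AAD4, AAD15 and AAD10 holding more of the family's reads in upf1Δ and AAD3, AAD6 and AAD16 less. AAD14 held 18.2 ± 0.601% in upf1Δ and 17.3 ± 1.49% in wild type, and its libraries overlapped.

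Per kb of annotated gene, the order of levels in upf1Δ was AAD4 at 115 ± 5.13 CPM per kb, AAD10 at 88.2 ± 5.80, AAD6 with AAD16 at 83.9 ± 5.74, AAD14 at 76.1 ± 1.86, AAD3 at 71.9 ± 5.77 and AAD15 at 55.8 ± 2.11 (SD, n = 3). For AAD10 beside AAD6 with AAD16, and for AAD14 beside AAD3, the ranges of mean ± SD overlapped. In wild type the order was AAD3 at 24.5 ± 2.17 CPM per kb, AAD6 with AAD16 at 20.6 ± 0.497, AAD10 at 15.9 ± 1.21, AAD14 at 14.4 ± 0.931, AAD4 at 13.6 ± 0.618 and AAD15 at 1.24 ± 0.423. There the ranges of AAD10 and AAD14, and of AAD14 and AAD4, overlapped. AAD15 was the lowest per kb in both genotypes.

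**Figure D3:**
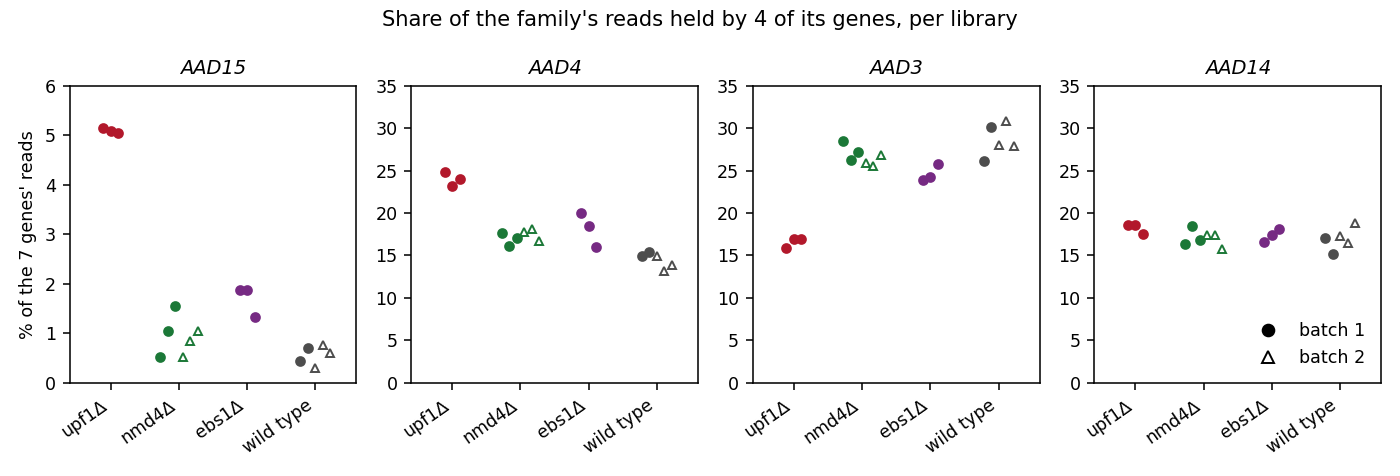
Percent of the 7 genes' reads (y axis, from 0; AAD15 has its own scale) held by AAD15, AAD4, AAD3 and AAD14 in each library, with upf1Δ, nmd4Δ, ebs1Δ and wild type from left to right. Filled points are batch 1 and open points batch 2; in upf1Δ the AAD15 share was 5.05% to 5.16% and in wild type 0.301% to 0.764%.

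Without EBS1 the family rose as well, by much less. The 7 rows together reached 146 ± 5.22 CPM in ebs1Δ, against 94.0 ± 2.48 CPM in wild type (SD, n = 3). All 7 were called higher (edgeR), where 14% of tested genes were, and in all 7 the ebs1Δ libraries lay above the wild type ones, as for 17.2% of tested genes. The median log2 fold change was 0.53, against -0.01 over all tested genes.

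AAD15 had 2.79, 2.62 and 1.96 CPM in ebs1Δ, against 0.271 to 0.718 CPM in wild type, with a log2 fold change of 2.03 ± 0.33 (edgeR, adjusted p = 0.000222). AAD4 had 29.9, 25.7 and 23.6 CPM in ebs1Δ, against 12.4 to 15.3 CPM in wild type, with a log2 fold change of 0.89 ± 0.08. These were again the members with the largest changes. AAD14 had 24.7, 24.3 and 26.8 CPM in ebs1Δ, against 15.2 to 17.4 CPM in wild type, with a log2 fold change of 0.61 ± 0.07. AAD10 had 20.3, 19.4 and 21.4 CPM in ebs1Δ, against 12.7 to 15.3 CPM in wild type. AAD6 had 20.02, 19.5 and 19.8 CPM in ebs1Δ, against 11.88 to 14.9 CPM in wild type, and AAD16 had 15.8, 14.2 and 16.3 CPM in ebs1Δ, against 9.99 to 10.6 CPM in wild type. These 3 had nearly equal log2 fold changes, 0.52 for AAD10, 0.53 for AAD6 and 0.52 for AAD16. AAD3 had 35.7, 33.8 and 38.1 CPM in ebs1Δ, against 24.9 to 30.04 CPM in wild type, and the smallest log2 fold change, 0.33 ± 0.09 (edgeR, adjusted p = 0.00911). With matched libraries as a block in limma the adjusted p of AAD3 was 0.034. Its call was lost when wild type replicate 1 was left out (edgeR, adjusted p = 0.058). Within batch 1 alone, log2 fold changes ran from 1.51 (AAD3) to 5.42 (AAD15) in upf1Δ and from 0.38 (AAD3) to 2.15 (AAD15) in ebs1Δ against wild type, with all 7 called in both, where 33.9% of tested genes were called higher in upf1Δ and 8.73% in ebs1Δ.

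Without NMD4 the differences were small, and most of the calls did not hold once matched libraries were taken into account. The 7 rows together reached 110 ± 3.89 CPM in nmd4Δ, against 94.0 ± 2.48 CPM in wild type (SD, n = 3). Taking all libraries as separate, edgeR called 5 of the 7 higher, where 13.6% of tested genes were, and the median log2 fold change was 0.22. With matched libraries as a block in limma 1 of the 7 was called, where 4.28% of genes were. With matched libraries summed, 2 were called (4.31% of genes), and batch 1 alone gave 1 (1.44% of genes).

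AAD4 had 17.3 CPM in the lowest, 19.2 in the median and 21.5 in the highest nmd4Δ library, against 12.4 to 15.3 CPM in wild type. The groups did not overlap, and AAD16 was the other member for which they did not (7.94% of tested genes). The log2 fold change of AAD4 was 0.48 ± 0.06 (edgeR, adjusted p = 3.9e-05; limma with the block, adjusted p = 0.00963). It was called with the block and in batch 2 alone (0.53), but not in batch 1 alone (0.40, adjusted p = 0.072), where AAD14 was the only call.

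AAD15 had 0.563 CPM in the lowest, 0.991 in the median and 1.75 in the highest nmd4Δ library, against 0.271 to 0.718 CPM in wild type, and the groups overlapped. Its log2 fold change was 0.88 ± 0.27 (edgeR, adjusted p = 0.0222), and with the block the adjusted p was 0.148. Leaving out wild type replicate 1 or 3 or nmd4Δ replicate 6 also ended the call, with adjusted p-values of 0.0587, 0.0604 and 0.0562.

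AAD14 had 16.4 CPM in the lowest, 18.97 in the median and 20.2 in the highest nmd4Δ library, against 15.2 to 17.4 CPM in wild type. AAD6 had 13.9, 15.04 and 16.98 CPM in the lowest, median and highest nmd4Δ library, against 11.88 to 14.9 CPM in wild type, and AAD16 had 11.4, 11.9 and 13.4 CPM in nmd4Δ, against 9.99 to 10.6 CPM in wild type. The groups overlapped for AAD14 and AAD6. All 3 had a log2 fold change of 0.22, called when libraries were separate (adjusted p = 0.00527, 0.00384 and 0.0146) and not with the block (0.228, 0.0752 and 0.211). AAD3 had 26.96 CPM in the lowest, 28.4 in the median and 34.7 in the highest nmd4Δ library, against 24.9 to 30.04 CPM in wild type, and its log2 fold change was 0.11 ± 0.06 (edgeR, adjusted p = 0.192). AAD10 had 14.5 CPM in the lowest, 14.7 in the median and 15.1 in the highest nmd4Δ library, against 12.7 to 15.3 CPM in wild type, and its log2 fold change was 0.08 ± 0.05 (edgeR, adjusted p = 0.233). For AAD3 and AAD10 the groups overlapped, and neither was called. In batch 1 alone the sign of AAD10 turned, at -0.0098.

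The effect of nmd4Δ could be read in both batches. Most batch 2 libraries matched a batch 1 library, so the batches are not separate measurements, and likeness between them does not show replication. A term for the difference of the nmd4Δ effect between batches called 0 of the 7 genes and 0% of the 6162 tested (edgeR, with 0 at an unadjusted p under 0.05 among the 7, and 0 and 0 by DESeq2). The smallest unadjusted p was 0.0898, for AAD14, whose log2 fold change was 0.32 in batch 1 and 0.15 in batch 2.

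**Figure D4:**
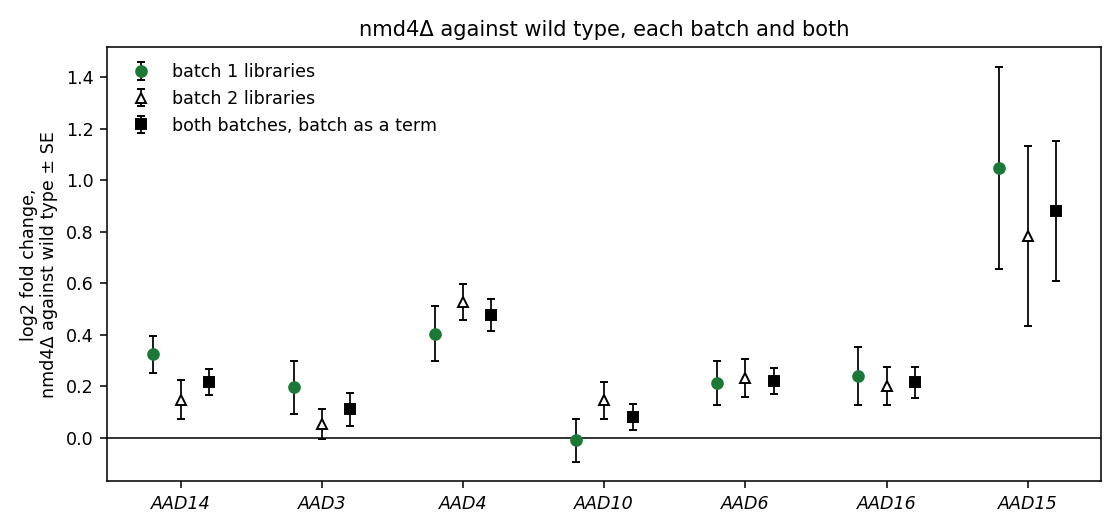
Log2 fold change of nmd4Δ against wild type ± SE (y axis) for each AAD row, from batch 1 libraries, from batch 2 libraries and from both with batch as a term. AAD4 lay at 0.40, 0.53 and 0.48, and AAD10 lay near 0 in batch 1.

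Between deletions, the family was lower in nmd4Δ and in ebs1Δ than in upf1Δ. All 7 rows were called lower in nmd4Δ than in upf1Δ (edgeR; 36% of tested genes), with log2 fold changes from -1.35 (AAD3) to -4.42 (AAD15). All 7 were called lower in ebs1Δ than in upf1Δ (33.8% of tested genes), with log2 fold changes from -1.13 (AAD3) to -3.28 (AAD15). Libraries of the compared groups did not overlap in any of the 7 in either comparison (35% and 34.1% of tested genes lower without overlap). The deletions share their wild type libraries in the comparisons above, while these tests compare them with one another.

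All 7 were also called lower in nmd4Δ than in ebs1Δ (16% of tested genes), with a median log2 fold change of -0.39. In 6 of the 7 the libraries did not overlap (15.8% of tested genes). AAD15 had the largest difference, -1.15 ± 0.29 (edgeR, adjusted p = 0.0104), with 0.563 to 1.75 CPM in nmd4Δ and 1.96 to 2.79 CPM in ebs1Δ. AAD10 differed by -0.44 ± 0.06, AAD4 by -0.41 ± 0.08 and AAD14 by -0.39 ± 0.07. AAD3 differed least, by -0.22 ± 0.08 (edgeR, adjusted p = 0.0485), its libraries overlapped, and the call was lost in 21 of the 27 alternatives run. Among these were leaving out any 1 ebs1Δ library, nmd4Δ replicate 2, 3, 4, 5 or 6, wild type replicate 1, 2, 4 or 5, or upf1Δ replicate 2 or 3, with adjusted p-values of 0.051 to 0.195. AAD16, at -0.31 ± 0.08, lost its call in 3, with batch 1 alone, with matched libraries as a block and without ebs1Δ replicate 3 (adjusted p = 0.064, 0.0535 and 0.0576).

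**Figure D5:**
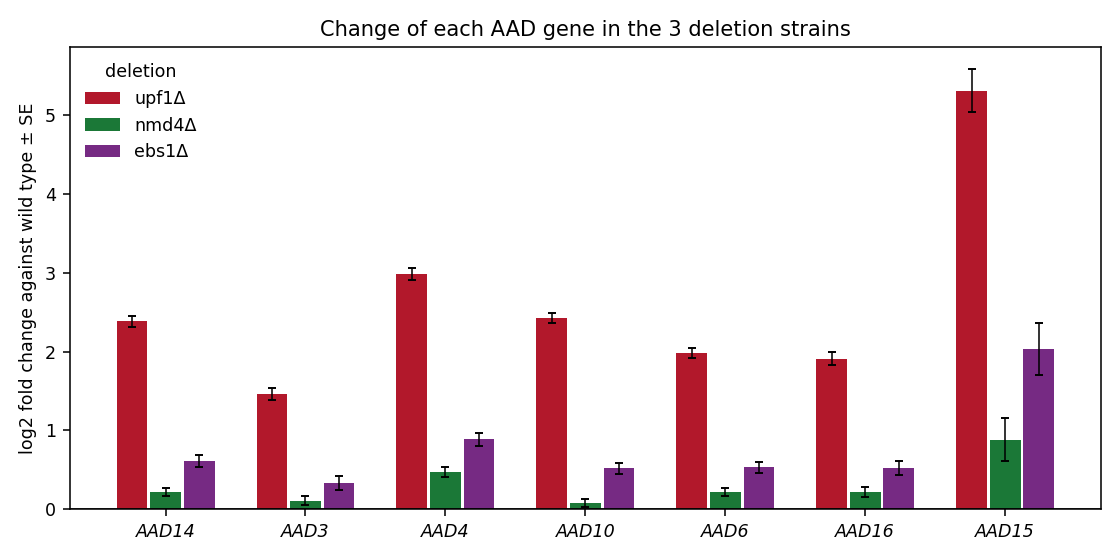
Log2 fold change against wild type ± SE (bars from 0) of each AAD row in upf1Δ, nmd4Δ and ebs1Δ. AAD15 had the tallest bar in each deletion, at 5.31, 0.88 and 2.03, and AAD3 the shortest in upf1Δ and ebs1Δ, at 1.46 and 0.33.

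Yap1 is known to bind the motif TTACTAA. The 250 bases before and 50 after each annotated start, and for AAD4 and AAD10 also around codon 1 of the AAD14 frame, were searched on both strands, where its other strand reads TTAGTAA, and 7.48% of the 6019 promoters of that length hold it. AAD6 held it at 242 and 223 bases before its start. AAD4 held it 218 bases before codon 1 of the AAD14 frame, but not in the window at its annotated start. The 7.48% counts windows at annotated starts, and by that rule AAD6 was the only member searched that held the motif. The related TTACAAA and TGACTAA, in 9.07% and 3.62% of promoters, were in none of the AAD windows, and TTACTAA was in none of the other members' windows. Windows are shown for the pair that holds the motif and for AAD14, with the 7 motif positions in capitals. They were found by searching each upstream region for the letters AGTAAGCA, not by aligning the promoters. The letters they share there thus follow from the search.
AAD4: caacataaaaTTAGTAAgcagacctcgttc
AAD14: ctgtacaaaaCCAGTAAgcagatctcgtac
AAD6: ttgctctcaaTTAGTAAgcaaatccgtatc
They are chrIV:18903-18932, chrXIV:17445-17474 and chrVI:15635-15664, all on the minus strand of RefSeq R64. AAD4 and AAD6 had log2 fold changes of 2.98 and 1.99 in upf1Δ, and AAD14, AAD10, AAD3 and AAD15, without the motif, had 2.38, 2.43, 1.46 and 5.31. The ranges of members with and without the motif overlapped, and the part of Yap1 in these values was not tested.

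Of 20 genes listed as Yap1-dependent oxidative stress genes, 10 were called higher and 3 lower in upf1Δ than in wild type, where 36.4% of all tested genes were called higher and 35.1% lower. The median log2 fold change of the list was 0.26, against -0.02 over all genes. The highest log2 fold changes were those of FLR1, a drug exporter, at 2.86 ± 0.06, GTT2, a glutathione transferase, at 2.74 ± 0.08 and ATR1, a drug exporter, at 1.4996 ± 0.07 (log2 fold change ± SE; edgeR, adjusted p = 1.84e-17, 3.88e-16 and 2.17e-13). The glutathione transferase gene ECM4 was at 0.36 ± 0.09. The 3 called lower were CCP1 at -0.48 ± 0.09, the glutathione reductase gene GLR1 at -0.39 ± 0.05 and YCF1, which encodes a vacuolar transporter of glutathione conjugates, at -0.20 ± 0.07. The 7 not called, TRX2, TRR1, TSA1, AHP1, OYE2, HBN1 and GRE2, lay between -0.15 (OYE2) and 0.47 (AHP1). YAP1 itself was at 0.23 ± 0.06. In ebs1Δ 5 were called higher and 2 lower (14% and 7.38% of all tested genes), the higher ones being FLR1 (0.70), OYE3 (0.56), GTT2 (0.46), ATR1 (0.45) and YAP1 (0.19). In nmd4Δ 7 were called higher and 1 lower with libraries taken as separate (13.6% and 14.4% of all tested genes), with FLR1 (0.31 ± 0.05), the glutathione reductase gene GLR1 (-0.17 ± 0.04) and the thiol peroxidase gene AHP1 (0.59 ± 0.16) at the lowest p-values, and 3 higher with the block (4.28%).

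The other aldo-keto reductases of yeast, which like the AAD proteins reduce carbonyl groups with NADPH, did not all move with the family. Of 8 listed, 5 were called higher and 1 lower in upf1Δ (36.4% and 35.1% of all tested genes). YPL088W, a putative aryl-alcohol dehydrogenase, was at 2.50 ± 0.05 (log2 fold change ± SE), the glycerol dehydrogenase GCY1 at 1.31 ± 0.10, YJR096W at 0.76 ± 0.07, YPR127W at 0.68 ± 0.06 and YDL124W at 0.34 ± 0.12. YPR1, a paralog of GCY1, was called lower at -0.19 ± 0.08 (edgeR, adjusted p = 0.0488), and GRE3 (-0.06 ± 0.11) and ARA1 (-0.18 ± 0.09) were not called. With batch 1 alone, and with matched libraries summed, no gene of this list was called lower in upf1Δ. In ebs1Δ YPL088W (0.64 ± 0.06) and YPR127W (0.20 ± 0.06) were called higher and ARA1 (-0.30 ± 0.09) lower (14% and 7.38% of all tested genes). In nmd4Δ YDL124W (0.37 ± 0.09) was called higher and none lower (13.6% and 14.4% of all tested genes).

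The Ehrlich pathway turns amino acids into aldehydes and then into fusel alcohols, the class of reaction that an aryl-alcohol dehydrogenase would join at its last step. Of 19 listed genes, 9 were called higher and 5 lower in upf1Δ (36.4% and 35.1% of all tested genes), with a median log2 fold change of 0.09. The acetyltransferase gene ATF1 (1.17 ± 0.05), THI3 (0.93 ± 0.05), a regulator of thiamine genes, and the pyruvate decarboxylase gene PDC5 (0.88 ± 0.08) had the lowest p-values. In ebs1Δ 3 were called higher and 2 lower (14% and 7.38% of all tested genes), with ADH5 (0.27 ± 0.07), ADH1 (-0.35 ± 0.10) and the transcription factor gene ARO80 (0.22 ± 0.06) at the lowest p-values. With matched libraries as a block 4 were higher and 1 lower there, and with batch 1 alone or matched libraries summed 1 was higher and 1 lower. In nmd4Δ 4 were called higher and 3 lower (13.6% and 14.4% of all tested genes), with ADH4 (2.46 ± 0.16) and ADH2 (-0.92 ± 0.13), both alcohol dehydrogenase genes, and PDC5 (0.40 ± 0.06) at the lowest p-values, and batch 1 alone gave 1 higher and 1 lower. The list of 7 other aldehyde and ketone reductases shares ADH6, ADH7 and SFA1 with the Ehrlich list and GRE2 with the Yap1-dependent list. Of the 7, 3 were called higher and 1 lower in upf1Δ (36.4% and 35.1% of all tested genes). The higher ones were YDR541C (0.91 ± 0.05), YGL039W (0.93 ± 0.07) and ARI1 (0.43 ± 0.06), and the lower one ADH6 (-0.29 ± 0.06). YGL039W and YDR541C were the 2 called higher in both nmd4Δ and ebs1Δ (13.6% and 14% of all tested genes).

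Most genes beside the AAD loci were also called higher in upf1Δ. Of the nearest 3 genes on each side of every locus, 32 in all, 28 were tested, and 25 were called higher and 2 lower in upf1Δ (36.4% and 35.1% of all tested genes), with a median log2 fold change of 1.71. THI13, THI5, THI11 and THI12, near-identical genes of thiamine precursor synthesis, lie 350, 353, 302 and 263 bases from AAD4, AAD6, AAD10 and AAD14 on the opposite strand, with their 3' ends facing. Their log2 fold changes in upf1Δ were 1.59 ± 0.15, 1.81 ± 0.24, 1.74 ± 0.11 and 1.62 ± 0.15, and reads cannot be assigned with certainty among them. RDS1, before AAD3, was at 1.41 ± 0.06, and YJR154W, before AAD10, at 2.33 ± 0.09. AGP3, on the 5' side of AAD6, was at 2.04 ± 0.08, and YDL242W, on the 5' side of AAD4, at 2.82 ± 0.30, both on the opposite strand. RPD3, a histone deacetylase gene 752 bases from AAD14, was called lower at -0.33 ± 0.05. The other gene called lower was LRG1 (-0.39 ± 0.06), the third on the 5' side of AAD4. YOL164W-A, 2051 bases from AAD15, was at 4.00 ± 0.56. It had only 1 to 41 reads a library, and YDL242W 4 to 44, which limits the precision of both changes. In ebs1Δ 14 of the 28 were called higher (14% of all tested genes), with a median of 0.47. In nmd4Δ 15 were called higher (13.6% of all tested genes), with a median of 0.25, and 4 with the block (4.28%). None was called lower in either. What position has to do with the AAD values was not tested.

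Across the 17 libraries the AAD rows followed one another, with Pearson's r of log2 CPM between 0.955 and 0.995 over the 21 pairs; all share the step between upf1Δ and the other libraries, and no test was made. Among 5151 genes with a mean of at least 10 CPM, the patterns most like AAD14 were those of EMA35 (r = 0.998) and ADY4 (0.997), and those most like AAD3 were ISC10 (0.990) and CUS2 (0.989). For AAD4 they were BUD7 and SLX8 (both 0.997), for AAD10 MNT4 (0.998) and ARG81 (0.997), for AAD6 MET3 and YPR196W (both 0.995), and for AAD16 SLX8 and PDR8 (both 0.996). AAD15 was closest to ATR1 (0.985), the Yap1-dependent exporter gene above, and MLH2 (0.983).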

How the data were processed

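The labels' protocols describe poly(A) libraries, 17 in all, prepared with a directional kit. The authors deposited raw counts of reads per gene in a table with a column for each library. The submitters' processing notes name STAR 2.7.11a, featureCounts, Subread 2.0.5 and the build sacCer3. For the annotation, the strand setting and multi-mapping reads the sources used here give nothing. Counts were fitted in R 4.3.3 with edgeR 4.0.16: filterByExpr (6162 genes), TMM scaling, robust quasi-likelihood, terms for genotype and sequencing batch, two-sided tests, Benjamini-Hochberg adjustment over all tested genes, and calls at an adjusted p under 0.05. The fit had 12 residual degrees of freedom. P-values measure the spread between these libraries, which may in part be technical.

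Matched libraries were averaged for means and SDs, taken as a block in limma 3.58.1 (consensus correlation 0.7185), or summed. Alternatives were DESeq2 1.42.0, its size factors in edgeR, leaving out each library, a fit of either batch by itself, a block for replicate numbers, fits without the low-count filter, the batch term or robust estimation, a fit of the 2 groups compared, and lengths that count only unique 100-base windows. The replicate numbers of nmd4Δ and upf1Δ met the rule for pairing (each same-number correlation over 0.1, from 0.100 to 0.190, with nothing in the labels behind it), and that block changed no call between them.

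Sequences, coordinates and alignments are from RefSeq R64, read with Biopython 1.88. Of the table's IDs 6008 are in that annotation; AAD16 is there only inside AAD6. The family and the gene lists were chosen with earlier results of these data known. Named genes were all members, all aldo-keto reductases and the deleted genes. Also named were the 3 called genes of each list with the lowest p in each comparison with wild type. The nearest gene on each side of a locus and the 2 most correlated genes per member were named too. YAP1, ADH6, LRG1, SAG1 and STE3 were named after their values were seen. ECM4, YCF1, OYE3, CCP1, TRX2, TRR1, TSA1, OYE2, HBN1, GRE2, ADH7, SFA1, HIS3 and LEU2 were also named outside these rules, with their values known. The fit was tested on simulated data with known changes, drawn independently for each library at a common dispersion. Of the simulated calls 5.29% to 6.57% were false, and 98% to 100% of 2-fold changes were recovered. Changed genes were drawn only from those above a floor of expected reads that AAD15 does not reach, so the recovery does not cover AAD15. Matched libraries were not simulated, so this test cannot tell how the fit treats them.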

Additional observations from a re-analysis of the deposited data

Results flagged for a closer look

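Among the groups of 4 to 10 libraries, 14 in all (7 genes in nmd4Δ and in wild type), 1 had a library that stood apart. AAD16 reached 13.41 CPM in nmd4Δ replicate 1, the highest of the 6 nmd4Δ libraries, of which the other 5 lay lower and closer together; the gap to the next library was 0.639 of the group's range. Chance flags about 1 in 20 such groups. Its matched library, nmd4Δ replicate 4, had 11.6 CPM.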

How the results depend on the processing

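All 7 AAD genes kept their calls and directions in upf1Δ against wild type, in nmd4Δ against upf1Δ and in ebs1Δ against upf1Δ under every alternative run. Over all comparisons 1096 of 1141 member values kept direction and call, 44 lost the call and 1 reversed, AAD10 in nmd4Δ against wild type with batch 1 alone (-0.0098). The 5 members called in nmd4Δ against wild type became 1 in batch 1 alone, 1 with matched libraries as a block, 2 with matched libraries summed and 1 in batch 2 alone (the last added after the data were seen). Leaving out 1 library gave 4 to 5 there, 6 to 7 in ebs1Δ against wild type and 5 to 7 in nmd4Δ against ebs1Δ. With replicate numbers as a block the counts were 7 in upf1Δ, 4 in nmd4Δ and 7 in ebs1Δ against wild type, 7 in nmd4Δ against upf1Δ, 7 in ebs1Δ against upf1Δ and 6 in nmd4Δ against ebs1Δ. Apart from nmd4Δ with upf1Δ, same-number correlations ran from -0.410 to 0.510 and did not pair the samples, and 5 of 17 libraries correlated best with their own number. Of 810 list counts, 731 stayed within 1.5 times. With batch 1 alone the counts in nmd4Δ against wild type were 0 aldo-keto reductases higher, 0 Yap1-dependent genes higher and 0 lower, 1 Ehrlich gene higher and 1 lower, 1 other reductase higher and 1 neighbour higher. There the ebs1Δ counts were 1 aldo-keto reductase higher and 0 lower, 3 Yap1-dependent genes higher, and 1 Ehrlich gene higher and 1 lower. With matched libraries summed the nmd4Δ counts were 0 aldo-keto reductases higher, 1 Yap1-dependent gene higher and 0 lower, 2 Ehrlich genes higher and 1 lower, and 6 neighbours higher, and the ebs1Δ counts 1 Ehrlich gene higher and 1 lower. With matched libraries as a block, 3 Yap1-dependent genes and 4 neighbours were higher in nmd4Δ and 1 Ehrlich gene was lower in ebs1Δ. The 1 aldo-keto reductase lower in upf1Δ became 0 with batch 1 alone, with 2 groups only, without the robust fit and with matched libraries summed. With 2 groups only, nmd4Δ had 3 aldo-keto and 5 other reductases higher, and ebs1Δ had 1 aldo-keto reductase higher, 0 lower and 0 Ehrlich genes lower. The replicate block gave 3 aldo-keto and 5 other reductases higher in nmd4Δ and 1 Ehrlich gene lower in ebs1Δ, DESeq2 3 aldo-keto reductases higher in nmd4Δ, and no batch term 5 Ehrlich genes higher in ebs1Δ. Leaving out 1 library gave 0 to 2 aldo-keto reductases lower in upf1Δ, 1 to 3 higher in nmd4Δ, 1 to 2 higher and 0 to 2 lower in ebs1Δ, 3 to 8 Yap1-dependent genes higher in nmd4Δ, 2 to 5 Ehrlich genes higher and 0 to 2 lower in ebs1Δ, and 1 to 2 other reductases lower in upf1Δ. The causes were not tested. AAD15 in wild type and nmd4Δ rests on 11 to 52 reads a library, which limits the precision of its changes.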
